A study of Pinus pinaster with 30 samples.

Results

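Early and mature zygotic embryos of maritime pine (Pinus pinaster) were compared, with 3 samples harvested on Day0 against 3 samples harvested on Day25. The Day0 samples mixed embryos of stages T0, T1 and T2, which have no cotyledons yet, and the Day25 samples held embryos of stage T7, which are mature. Each sample held, per the labels, the RNA of 60 dominant embryos, in some cases joined from several extractions, which were dissected out of the seeds of open-pollinated trees of a single clonal orchard, without treatment, so that the haploid seed tissue around the embryo was removed and the embryos of a pool differ in their genotype. Together these are 6 of the 15 samples and 12 of the 30 arrays of a series with 5 harvests (Day0, Day5, Day11, Day15 and Day25), with 2 technical replicate arrays for every sample. Stage, harvest date and the trees sampled at each harvest cannot be told apart. Nothing in the labels says that the 3 samples of a day came from separate trees, and p-values measure only the spread between these pools.

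The array (PtGen2) carries cDNA of loblolly pine roots and needles on 26496 spots, so that transcripts made only in embryos may have no spot and transcripts of pine gene families can bind the same spot. The embryo's amplified RNA carried Cy3 and a reference pool of RNA from all 15 samples carried Cy5, and every level below is the log2 of the embryo signal relative to that of the pool. A level of 1 is thus 2-fold above the pool, and a difference of 1 between the days is a 2-fold change. Members of the comparison are the spots with a level in at least 2 samples on both days, which were 16449 of the 26496 spots (62.1%), 10201 of them with a level in all 6 samples. Where 2 levels are given for a day, the quality marks left out the third sample. A lower level in a whole embryo can come from fewer cells of a type or from less RNA per cell, and these cannot be told apart here.

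A pine embryo begins as an embryonal mass on a suspensor, then forms a shoot and a root meristem and a crown of cotyledons, and at maturity it stops dividing and becomes able to survive drying. Late embryogenesis abundant (LEA) proteins, small heat shock proteins and sugars of the raffinose family are known to protect cells of maturing seeds, and the hormone abscisic acid is known to promote this phase in many seed plants. Cell division, cell expansion and the building of walls are the known work of the earlier phase. Chromatin proteins, small RNAs and transcription factors are known from Arabidopsis to set the order of these phases.

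The quality marks kept 13767 to 15990 spots per array on Day0 and 10860 to 18676 on Day25. At kept spots the median embryo signal was 34.0 times the local background on Day0 and 41.8 times on Day25. Over the spots tested, samples of Day0 correlated with each other at 0.616 to 0.811 and samples of Day25 at 0.67 to 0.875, while pairs across the days lay between -0.468 and 0.083 (median -0.382). The embryo carried the same dye on every array, and the reference pool held RNA of both days. The highest of these cross-day values, 0.083, joined the replicates 1 of both days. Spots named for embryo proteins, the expected tissue, were all above background (lowest median signal 15.67 times background), and 4 of the 9 tested rose and 5 fell. Of the 7 spots named for light harvesting or photosystem proteins 2 rose and 5 fell. Of the 15 named for chitinases, thaumatins and related proteins of wounded tissue 3 rose, 9 fell and 3 did not pass, and their mean level was 0.2 to 0.54 on Day0 and -0.27 to -0.15 on Day25. Their part in the results below was not tested.

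Between Day0 and Day25 the transcript levels of 6026 of the 16449 spots differed (limma, Benjamini-Hochberg adjusted p under 0.05), which is 36.6% of the spots tested. Of these 3150 rose (19.2%) and 2876 fell (17.5%). A change of at least 2-fold was met by 2640 spots (16.0%), with 1480 that rose (9.00%) and 1160 that fell (7.05%). In 2629 of these 2640 spots the samples of Day0 and Day25 did not overlap, which follows largely from choosing the spots on the same levels. Over all spots tested, the days did not overlap in 56.2%. Rises of at least 4-fold numbered 302 and falls 180. At 8-fold there were 52 rises and 32 falls, and at 16-fold 4 and 5. The median difference over all spots was -0.02 and the median size of a difference was 0.41, at a median standard error of 0.18.

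**Figure D1:**
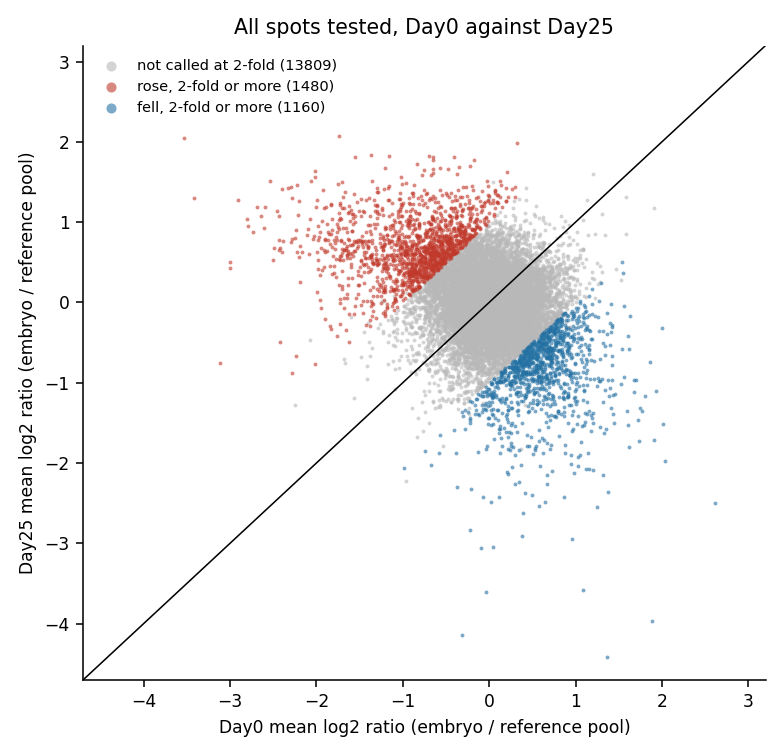
Mean level (log2, embryo relative to the reference pool) on Day0 (horizontal axis) and on Day25 (vertical axis) for the 16449 spots tested, each mean over 2 or 3 samples. Red points are the 1480 spots that rose and blue points the 1160 that fell at least 2-fold with an adjusted p under 0.05, grey points are all others, and the diagonal line marks equal levels.

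The gene names come from tables of the study, most of which list spots because they changed on these samples. Of 1709 named spots tested, 1654 come from such tables, and 748 rose, 602 fell and 359 did not pass (median difference 0.27). Among the 55 named only elsewhere, 10 rose, 6 fell and 39 did not pass. Counts of named spots that changed are thus not independent evidence of a direction, and below each list is described by how its members divide. Each list is to be read beside the 748 rises and 602 falls of all 1709 named spots. The names are those of the most similar known protein and can stand for a relative in the same family. Of the 2640 spots that changed at least 2-fold, 1767 have no name here, among them spot 4.2.13.4, which had the highest rise of all (5.58).

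Among named spots, with 1 spot taken for each name, the highest rises were those of a B12D-like protein, several heat shock proteins and enzymes of unlike pathways. A B12D-like protein, of a family first described in barley grain, had levels of -2.54, -2.12 and -0.55 on Day0 and 0.88, 2.82 and 2.52 on Day25, a rise of 3.81 ± 0.61 (SE, adjusted p = 0.00215). A glucan endo-beta-glucosidase, of the enzymes that cut wall glucans such as callose, had levels of -2.89, -3.03 and -1.87 on Day0 and 0.10, 1.87 and 1.62 on Day25 and rose by 3.79 ± 0.48 (SE, adjusted p = 0.000772). In both, Day25 replicate 1 was the lowest of its day and Day0 replicate 3 the highest of its day, yet the days lay apart. The B12D-like rise was 4.41 without Day0 replicate 3 and also 4.41 without Day25 replicate 1. A low molecular weight heat shock protein, a chaperone that keeps unfolding proteins soluble, gave -3.42, -2.79 and -2.17 on Day0 and 0.03, 1.48 and 1.33 on Day25 with a rise of 3.74 ± 0.42 (SE, adjusted p = 0.0005). Pseudo-response regulator 7, a part of the circadian clock in Arabidopsis, gave -2.66 and -1.94 on Day0 and 0.53 and 2.34 on Day25 with a rise of 3.74 ± 0.58 (SE, adjusted p = 0.00398), which was 4.64 without Day25 replicate 1 and 2.83 without Day25 replicate 3. All Day0 levels of these 4 spots were below the reference pool and all Day25 levels above it. Here and below, the days did not overlap in any spot given with its levels in the samples except FAMA. For the spots picked by the size of their rise or fall, this was a condition of the choice.

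Other high rises had a narrow spread on both days. 5-methylcytosine DNA glycosylase, a repair enzyme that takes methylated cytosine out of DNA, had levels of -2.16, -2.58 and -1.94 on Day0 and 1.61, 1.41 and 1.35 on Day25 and rose by 3.68 ± 0.19 (SE, adjusted p = 4.75e-05). HMG-CoA reductase, which commits carbon to the mevalonate pathway of sterols and terpenoids, had levels of -2.07 and -1.96 on Day0 and 1.68, 1.49 and 1.74 on Day25 and rose by 3.65 ± 0.16 (SE, adjusted p = 6.13e-05). A protein of unknown function with a DUF1336 domain gave -2.12 and -2.01 on Day0 and 1.67, 1.61 and 1.28 on Day25, a rise of 3.58 ± 0.18 (SE, adjusted p = 6.95e-05). The samples of a day lay close together in all 3 spots beside the distance between the days. A spot matched to alcohol dehydrogenase 1 of Arabidopsis (AT1G77120), the enzyme that ends ethanol fermentation, had -2.47, -2.40 and -1.83 on Day0 and 1.17, 0.68 and 0.87 on Day25 and rose by 3.14 ± 0.21 (SE, adjusted p = 9.54e-05). Another spot, named alcohol dehydrogenase-like protein, went the other way and changed by -1.34. The metallothionein-like protein EMB30, a small metal-binding protein whose name comes from white spruce, gave -2.53, -2.26 and -2.52 on Day0 and -0.52, 1.23 and 1.26 on Day25 and rose by 3.10 ± 0.43 (SE, adjusted p = 0.0012). Here Day25 replicate 1 was the only Day25 sample below the reference pool, and the rise was 3.69 without it. Further spots of a name already given, among them low molecular weight heat shock protein spots at 3.71, 3.60 and 3.53, are not counted again. The remaining spots among the 15 names with the highest rise were a nucleic acid binding protein (3.16), a peptidyl-prolyl isomerase (3.08), an ATP synthase F0 subunit (3.08) and 3 heat shock spots described below.

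The deepest falls belonged to proteins of the cell wall and its outside, to detoxification and to defence. An L-ascorbate oxidase-like protein, named after a copper enzyme of the cell wall space, had levels of 2.83, 1.53 and 1.31 on Day0 and -3.51 and -4.44 on Day25 and changed by -5.86 ± 0.48 (SE, adjusted p = 0.000243). A glutathione S-transferase-like protein, of the enzymes that join glutathione to reactive compounds, had 2.22, 0.61 and 1.28 on Day0 and -4.42, -4.43 and -4.39 on Day25, a change of -5.78 ± 0.35 (SE, adjusted p = 6.47e-05). The embryo signal of these spots on Day25 was a median of 5.58 and 10.3 times background, against 187 and 366 times on Day0. A gibberellin induced protein, of a family of small secreted cysteine-rich peptides, had 0.96, 0.61 and 1.68 on Day0 and -3.81, -3.62 and -3.32 on Day25 and changed by -4.67 ± 0.27 (SE, adjusted p = 6.13e-05). An anti-microbial protein gave -0.22, -0.38 and -0.34 on Day0 and -4.35, -4.27 and -3.82 on Day25 with a change of -3.83 ± 0.17 (SE, adjusted p = 4.26e-05), and a germin-like protein, of a family of wall glycoproteins, gave -0.33, 0.04 and 0.17 on Day0 and -3.61, -3.69 and -3.54 on Day25 with a change of -3.57 ± 0.17 (SE, adjusted p = 4.26e-05). These last 2 stood close to the reference pool on Day0 and far below it in every Day25 sample, unlike the wall enzymes, which stood above the pool on Day0.

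Of the 10 other names among the 15 deepest falls, 5 were wall proteins. A xyloglucan endotransglucosylase/hydrolase (XTH) of type 23, of the enzymes that cut and rejoin the xyloglucan chains between cellulose fibres, had 3.51 and 1.72 on Day0 and -2.09 and -2.90 on Day25 and changed by -5.12 ± 0.58 (SE, adjusted p = 0.00128). This fall was -4.22 without Day0 replicate 1 and -6.01 without Day0 replicate 3. Pectinesterase 68, which takes methyl groups off pectin, had 2.05 and 2.01 on Day0 and -1.92 and -2.03 on Day25 and changed by -4.00 ± 0.18 (SE, adjusted p = 9.54e-05), while a second spot of the same transcript assembly changed by -1.74. The second spot of XTH23 changed by -2.50. XTH28-like gave 2.62, 1.73 and 1.37 on Day0 and -1.81, -1.81 and -1.54 on Day25 with a change of -3.63 ± 0.29 (SE, adjusted p = 0.000144). Arabinogalactan protein 4, a heavily glycosylated protein of the cell surface, gave 0.02, 2.21 and 0.36 on Day0 and -2.71, -2.49 and -2.07 on Day25 with a change of -3.29 ± 0.50 (SE, adjusted p = 0.00184), or -2.61 without Day0 replicate 2, its highest sample. In XTH23 and pectinesterase 68 only 2 samples of each day had a level. The others of the 15 names with the deepest fall were a xyloglucan endotransglycosylase (-3.79), a pentatricopeptide repeat protein (-3.74), a basic endochitinase (-3.54, with -1.08 on its second spot), an early nodulin-like protein (-3.46), a subtilisin-like protease (-3.46) and a protein named minor allergen alt (-3.20). Further spots of a name already given, such as a glutathione S-transferase-like protein at -3.41 and arabinogalactan protein 4 at -3.22, are not counted again.

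**Figure D2:**
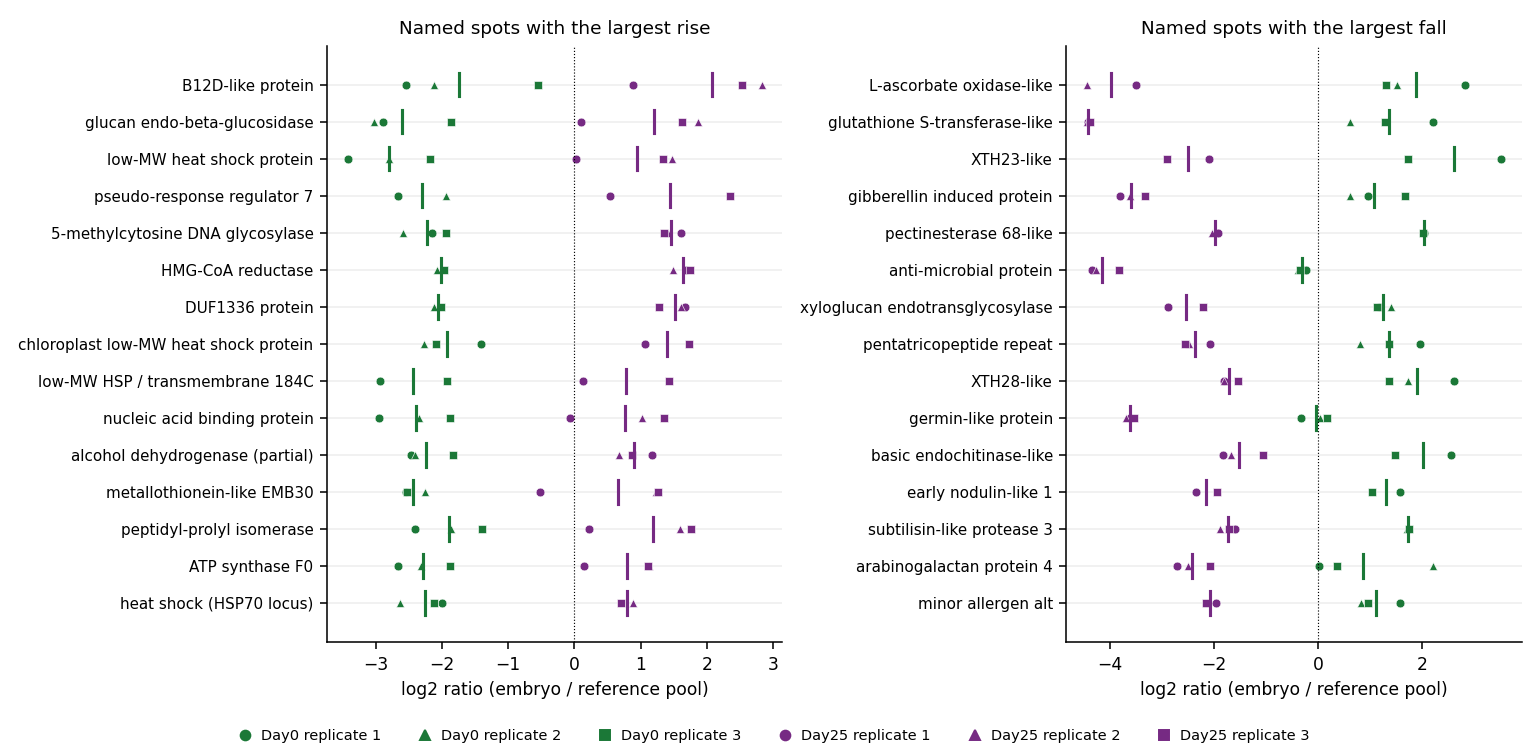
Level (log2, embryo relative to the reference pool) in each sample for the 15 names with the highest rise (left) and the 15 with the deepest fall (right), each by its most changed spot. Symbols are replicates, green for Day0 and purple for Day25, and vertical bars are the means of the day. Only spots whose days do not overlap were taken, and Day25 replicate 1 is the lowest Day25 sample in many of the rises.

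Heat shock proteins and other chaperones rose more often than they fell. Of 48 spots tested (63 are named), 31 rose, 8 fell and 9 did not pass, with a median difference of 1.19. The median was 0.27 over all named spots and -0.02 over all spots tested. Without Day0 replicate 3 the falls were 5. The list divided by kind. Of 20 small heat shock protein spots 19 rose and 1 fell, with a median of 2.63. The days did not overlap in any of these 20, beside 1492 of all 1709 named spots and 56.2% of all spots tested. Both HSP90 spots fell (-0.76 and -1.11), and of 11 DnaJ spots, which are partners of HSP70, 2 rose, 3 fell and 6 did not pass. This division was made after the values were seen. A chloroplast small heat shock protein had -1.42, -2.26 and -2.09 on Day0 and 1.07 and 1.74 on Day25 and rose by 3.32 ± 0.31 (SE, adjusted p = 0.000358). A heat shock spot matched to an Arabidopsis HSP70 had -2.0, -2.63 and -2.12 on Day0 and 0.89 and 0.71 on Day25 and rose by 3.05 ± 0.22 (SE, adjusted p = 0.000168), with 1 Day25 array saturated. The third, named both for a low molecular weight heat shock protein and for a transmembrane protein, rose by 3.21 (3.86 without Day25 replicate 1 and 2.56 without Day25 replicate 3). HSP90, the chaperone of many signalling proteins, had 0.74, 0.58 and 0.53 on Day0 and -0.62, -0.50 and -0.38 on Day25 and changed by -1.11 ± 0.14 (SE, adjusted p = 0.000779).

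Seed maturation proteins moved both ways. Of 14 spots tested of 22 named, 6 rose, 7 fell and 1 did not pass (median 0.13). Of the 5 LEA spots 4 rose and 1 did not pass (0.67), while all 3 dehydrins, which belong to the LEA proteins in the wide sense and bind water and membranes, fell. An LEA-like protein had -1.47 and -2.16 on Day0 and 0.89 and 1.18 on Day25 and rose by 2.85 ± 0.27 (SE, adjusted p = 0.000726). A further LEA protein, of the hydroxyproline-rich type, had -1.37, -1.75 and -1.65 on Day0 and 0.77, 1.5 and 1.03 on Day25 and rose by 2.69 ± 0.21 (SE, adjusted p = 0.000133). Dehydrin 9 had 0.92 and 0.99 on Day0 and -1.72 and -1.48 on Day25 and changed by -2.55 ± 0.19 (SE, adjusted p = 0.000316). Glutelin, a storage protein of the legumin kind, gave 1.28 and 1.43 on Day0 and -1.5 and -1.66 on Day25 and changed by -2.93 ± 0.19 (SE, adjusted p = 0.000207). The Day0 samples of dehydrin 9 and glutelin were above the reference pool and the Day25 samples below it, opposite to the LEA spots. Water-stress inducible protein 1 fell too (-1.38).

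Genes of sugar, starch and oil use went both ways. Of 17 spots for raffinose sugars, sucrose and starch 6 rose, 8 fell and 3 did not pass (median -0.44). Beta-amylase 2, an enzyme of starch breakdown, had -1.58, -2.16 and -1.87 on Day0 and 1.29, 0.73 and 0.63 on Day25 and rose by 2.75 ± 0.22 (SE, adjusted p = 0.000144), and alpha-amylase-like 3 rose by 1.46. The 3 spots for ADP-glucose pyrophosphorylase, which makes the precursor of starch, fell by a median of 0.75 on the log2 scale. Galactinol synthase, which starts the raffinose pathway, had 4 spots, and the calls were unlike among them. One rose (1.74) and 3 fell, among them galactinol synthase 1 with 0.10 and 0.32 on Day0 and -2.08, -1.98 and -2.29 on Day25, a change of -2.33 ± 0.17 (SE, adjusted p = 0.000182). In glycolysis and fermentation, 10 of 18 spots rose, 7 fell and 1 did not pass (median 0.90). Plastidial enolase, a late step of glycolysis, rose by 1.98, and the pyrophosphate-dependent phosphofructokinase had -1.08, -1.22 and -1.26 on Day0 and 1.25, 0.45 and 0.65 on Day25 and rose by 1.97 ± 0.21 (SE, adjusted p = 0.000397). Phosphofructokinase 5, the ATP-dependent enzyme of the same step, had 0.95, 0.82 and 0.88 on Day0 and -1.06, -1.21 and -1.05 on Day25 and changed by -1.99 ± 0.13 (SE, adjusted p = 9.11e-05). Fructokinase 2, which feeds fructose into the pathway, changed by -1.63. Of 9 spots for fat breakdown and peroxisomes 7 rose and 2 fell, or 4 and 1 without Day0 replicate 3. PEX14, which docks proteins on the way into the peroxisome, rose by 1.37, while a lipase like SDP1, which starts oil breakdown in Arabidopsis seedlings, changed by -2.19 ± 0.21 (SE, adjusted p = 0.00027) with levels of 0.76, 1.16 and 0.84 on Day0 and -1.70, -1.08 and -1.04 on Day25.

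Genes of DNA replication, translation and the cytoskeleton fell more often than they rose. Of 15 spots for replication, histones and the cell cycle, 10 fell and 5 rose (median -1.17). The rises were 3 without Day0 replicate 3 and 3 without Day25 replicate 2. All 7 spots for DNA synthesis proteins (replication proteins A, MCM3, the origin recognition complex, replication factor C and ribonucleotide reductase) fell, by 0.87 to 2.62 on the log2 scale. The 70 kDa subunit of replication protein A, which covers single-stranded DNA, had 0.79, 0.13 and 0.85 on Day0 and -1.72, -2.30 and -2.08 on Day25 and changed by -2.62 ± 0.23 (SE, adjusted p = 0.000209). Histone H2A, a core protein of the nucleosome, had -0.29, 1.09 and 0.69 on Day0 and -2.89 and -1.91 on Day25 and changed by -2.90 ± 0.44 (SE, adjusted p = 0.00246). Not every spot of this list fell. A TPX2 family protein, which binds the mitotic spindle, had -0.77, -0.98 and -1.01 on Day0 and 0.97, 1.07 and 1.19 on Day25 and rose by 2.0 ± 0.14 (SE, adjusted p = 0.000101), and cyclin-dependent kinase inhibitor 3, a brake of the cycle, rose by 1.34. A spot named for the spindle checkpoint protein MAD2B rose by 1.90.

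Of 40 spots for the ribosome and translation 23 fell, 4 rose and 13 did not pass (median -0.82). The rises were 2 without Day0 replicate 2 and 2 without Day25 replicate 2. Among 22 ribosomal protein spots 16 fell, 2 rose and 4 did not pass. Initiation factor 5A, which helps the ribosome through hard stretches of sequence, had 1.41, 1.23 and 1.39 on Day0 and -0.65, -0.55 and -0.45 on Day25 and changed by -1.89 ± 0.14 (SE, adjusted p = 0.000105). The acidic ribosomal protein P1 changed by -1.90, and ribosomal protein L28-1 rose by 1.37. In the cytoskeleton list 12 of 24 spots fell, 5 rose and 7 did not pass (median -0.97), and all 5 tubulin spots fell. Profilin, which feeds actin monomers to growing filaments, had 2.0, 1.69 and 1.10 on Day0 and -1.38, -1.31 and -1.35 on Day25 and changed by -2.94 ± 0.22 (SE, adjusted p = 0.000117). Actin itself was split, since 3 of 7 spots fell, 1 rose and 3 did not pass. The lowest had 2.34, 1.30 and 1.23 on Day0 and -0.14, -0.58 and -1.03 on Day25, a change of -2.21, and the highest had -1.36, -1.24 and -1.06 on Day0 and 0.09 and 1.02 on Day25, a change of 1.77. They are matched to different Arabidopsis actins (AT3G12110 and AT5G09810). None of the spots that carry the name actin 7 rose, with falls of -1.04 and -0.97 and differences of -0.25 and -0.25 that did not pass. The spot that rose is named only actin, and AT5G09810 is itself actin 7 of Arabidopsis. The names thus do not show that the rise belonged to another actin. SPIRAL2-like, which stabilizes microtubules, rose by 1.93.

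**Figure D3:**
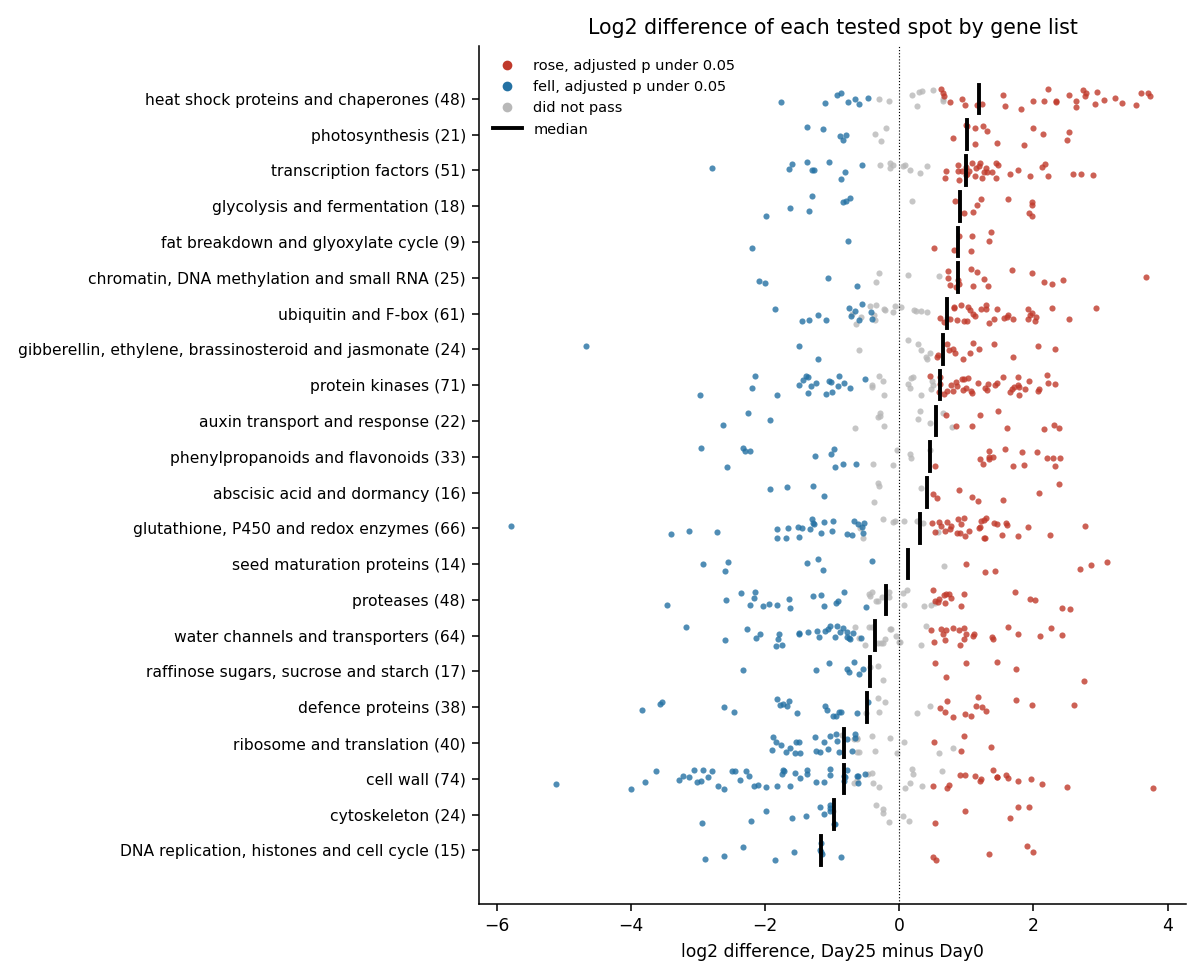
Log2 difference of every tested spot of 22 gene lists, Day25 minus Day0 on the horizontal axis, with the number of tested spots in parentheses and lists ordered by their median (black bar). Red points rose, blue points fell (adjusted p under 0.05) and grey points did not pass, and the medians run from -1.17 for DNA replication to 1.19 for heat shock proteins.

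The cell wall list was the longest with a fall on balance. Of 74 spots tested of 97 named, 44 fell, 18 rose and 12 did not pass (median -0.83). The 25 spots for xyloglucan endotransglucosylases included no rise, 21 falls and 4 that did not pass. Expansins, which loosen walls during growth, divided into 6 falls, 2 rises and 3 that did not pass. Spots named for pectin methylesterases or their inhibitor superfamily went both ways, with 6 falls and 8 rises among 15 spots. Of those named for the inhibitor superfamily, rises were 0.50 and 1.46, and another spot, at 0.15, did not pass. Rises in the list also included a pectin lyase-like protein with -1.42, -0.83 and -0.79 on Day0 and 1.80, 1.11 and 1.54 on Day25, a rise of 2.49 ± 0.24 (SE, adjusted p = 0.000253), and TRICHOME BIREFRINGENCE-LIKE 25, of a family that adds acetyl groups to wall sugars, with -0.88, -1.54 and -1.19 on Day0 and 1.06, 0.74 and 0.96 on Day25, a rise of 2.12 ± 0.19 (SE, adjusted p = 0.000222). In each of them all Day0 samples were below the reference pool and all Day25 samples above it.

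Phenylpropanoid genes divided between lignin and flavonoid steps. Of 33 spots 16 rose, 11 fell and 6 did not pass (median 0.46). Of 13 spots for enzymes of the lignin branch 9 fell, 1 rose and 3 did not pass, and of 14 spots for the flavonoid branch 12 rose, 1 fell and 1 did not pass, a split that was drawn after the values were seen. Caffeoyl-CoA O-methyltransferase, which methylates lignin precursors, had 1.12, 1.00 and 0.95 on Day0 and -2.07, -1.84 and -1.86 on Day25 and changed by -2.95 ± 0.14 (SE, adjusted p = 4.26e-05). Anthocyanidin synthase, a late enzyme of anthocyanins and of some tannins, had -1.71 and -1.36 on Day0 and 0.86, 0.84 and 0.57 on Day25 and rose by 2.30 ± 0.19 (SE, adjusted p = 0.000243), and flavonoid 3'-hydroxylase, which adds a hydroxyl group to the flavonoid ring, rose by 2.40. A second spot of this last name rose by 1.21, and another, with -0.83, was the fall in the flavonoid branch. The rise in the lignin branch was a caffeic acid O-methyltransferase (2.32), and pinosylvin synthase, a stilbene enzyme of pines, fell (-2.33).

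Redox and defence genes changed in both directions. Of 66 spots for glutathione enzymes, cytochromes P450 and peroxidases 31 rose, 26 fell and 9 did not pass. Glutathione S-transferases had 6 falls and 3 rises in 9 spots. A tau class spot had -2.98 and -1.86 on Day0 and -0.71 and -0.28 on Day25, a rise of 1.93 ± 0.38 (SE, adjusted p = 0.00983). Without Day25 replicate 3, which left a single Day25 sample, its rise was 1.71. Another spot of the tau class name fell (-1.13). Cytochromes P450 rose in 14 of 24 spots and fell in 5, the deepest fall being -3.14. A peroxidase had -2.21, -2.22 and -2.17 on Day0 and 0.28, 0.29 and 1.14 on Day25 and rose by 2.78 ± 0.23 (SE, adjusted p = 0.000166). Among 38 defence spots 13 rose, 19 fell and 6 did not pass (median -0.48). Chitinases, which cut fungal walls, fell in 7 of 9 spots and the other two did not pass. Resistance proteins of the NBS-LRR kind, the intracellular immune receptors of plants, rose in 8 of 15 spots and fell in 5. One of them had -1.56, -1.12 and -1.32 on Day0 and 1.52, 1.03 and 1.28 on Day25 and rose by 2.61 ± 0.18 (SE, adjusted p = 9.98e-05).

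Genes of photosynthesis rose more often than they fell, but not all parts moved together. Of 21 spots 13 rose, 5 fell and 3 did not pass (median 1.01). All 5 falls were photosystem I subunits, from -0.80 to -1.38, and all 5 spots for chlorophyll synthesis enzymes rose, from 1.13 to 2.51. Magnesium chelatase subunit CHLD, which puts magnesium into the chlorophyll ring, had -1.27, -1.55 and -1.08 on Day0 and 0.84, 1.26 and 1.51 on Day25 and rose by 2.51 ± 0.21 (SE, adjusted p = 0.000157). Chlorophyllide a oxygenase, which makes chlorophyll b, rose by 2.14. Photosystem I subunit O had 0.67, 0.88 and 0.56 on Day0 and -0.94, -0.73 and -0.34 on Day25 and changed by -1.38 ± 0.19 (SE, adjusted p = 0.00102). The Day0 levels of this subunit were above the reference pool in every sample and the Day25 levels below it.

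Transporters fell somewhat more often than they rose, with 27 falls, 21 rises and 16 spots of 64 that did not pass (median -0.36). Sugar transporters had 4 falls in 6 spots and no rise. A hexose transporter had 2.02, 1.34 and 1.80 on Day0 and -1.81, -0.91 and -1.65 on Day25 and changed by -3.18 ± 0.27 (SE, adjusted p = 0.000167). A NIP water channel, of a family that also passes boron and silicon compounds, had 1.69, 0.99 and 0.64 on Day0 and -1.49, -1.69 and -1.28 on Day25 and changed by -2.60 ± 0.26 (SE, adjusted p = 0.00032). In contrast, 2 of 3 proline transporter spots rose and the other was at 0.02. The higher of them had -0.44, -0.71 and -0.81 on Day0 and 1.73, 1.70 and 1.88 on Day25 and rose by 2.43 ± 0.15 (SE, adjusted p = 6.95e-05). A tonoplast intrinsic protein, a water channel of the vacuole, rose by 2.10.

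Hormone genes showed no single direction. In the abscisic acid list 8 of 16 spots rose, 4 fell and 4 did not pass (median 0.42). Of 7 protein phosphatases 2C, the group that includes the brakes of abscisic acid signalling, 5 rose and 2 did not pass, with the top one at -1.51, -1.33 and -1.19 on Day0 and 0.29, 0.21 and 0.09 on Day25, a rise of 1.54 ± 0.15 (SE, adjusted p = 0.000257). The receptor PYR1, which binds abscisic acid and blocks these phosphatases, had -0.33, 0.34 and 0.38 on Day0 and -1.49, -1.40 and -1.75 on Day25 and changed by -1.67 ± 0.22 (SE, adjusted p = 0.000846). Both PYL8 spots did not pass (-0.38 and -0.30). Neoxanthin synthase, on the way to the abscisic acid precursor, changed by -1.29. In the auxin list 9 of 22 spots rose, 3 fell and 10 did not pass (median 0.55). The auxin influx carrier, which takes auxin into cells, had 1.70, 1.52 and 0.69 on Day0 and -0.75, -1.19 and -0.92 on Day25 and changed by -2.26 ± 0.26 (SE, adjusted p = 0.00057). An enzyme like ILR1, which frees auxin from amino acid conjugates, rose by 2.16. Of 24 spots for gibberellin, ethylene, brassinosteroid and jasmonate 14 rose, 3 fell and 7 did not pass (median 0.65), and the rises were 9 without Day0 replicate 3. Allene oxide synthase, an early enzyme of jasmonate synthesis, had -2.01, -1.74 and -1.28 on Day0 and -0.27, 1.00 and 1.22 on Day25 and rose by 2.33 ± 0.38 (SE, adjusted p = 0.00228). EIN2 (named ethylene insensitive), a central part of ethylene signalling, rose by 1.69.

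Among the spots tested, regulators of chromatin and small RNAs rose in most cases. Of 25 spots tested of 36 named, 17 rose, 4 fell and 4 did not pass (median 0.88). The 3 spots of the list named for histone deacetylases rose, of which 2 belong to 1 transcript assembly, while HDA2, described below, did not pass. A pair of spots of a methyl-CpG-binding domain protein, also of 1 assembly, rose by 1.67 and 2.16, and 2 of 3 spots for S-adenosylhomocysteine hydrolase, which clears the by-product of methylation, fell. HDA8, a histone deacetylase, had -1.04 and -1.57 on Day0 and 1.08, 1.14 and 1.19 on Day25 and rose by 2.44 ± 0.20 (SE, adjusted p = 0.000243), or by 1.06 on the second spot of its assembly. The helicase RAD5 had -0.72, -1.16 and -0.95 on Day0 and 1.10 and 0.97 on Day25 and rose by 1.98 ± 0.18 (SE, adjusted p = 0.000379). A spot listed as AGO1, the protein that carries most microRNAs, and also named for its relative PINHEAD, had -1.51 and -1.09 on Day0 and 1.25, 1.01 and 0.68 on Day25 and rose by 2.28 ± 0.23 (SE, adjusted p = 0.000469). DCL1, the enzyme that cuts microRNAs from their precursors, went the other way, with 0.66, 0.58 and 0.56 on Day0 and -0.30, -0.60 and -0.47 on Day25, a change of -1.06 ± 0.14 (SE, adjusted p = 0.000952). The S-adenosylhomocysteine hydrolase with the deeper fall had 1.47, 0.83 and 0.72 on Day0 and -0.41, -1.13 and -1.69 on Day25, a change of -2.09 ± 0.33 (SE, adjusted p = 0.0021).

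Of the 24 chromatin and small RNA spots that the study lists, 14 were tested, and 10 rose, 2 fell and 2 did not pass. The falls were DCL1 and DMAP1, a partner of chromatin remodelling complexes (-0.68), whose adjusted p was 0.0638 without Day0 replicate 3 and 0.0717 without Day25 replicate 2. AGO9 had -0.42, -0.74 and -0.62 on Day0 and 1.23, 0.52 and 0.27 on Day25 and rose by 1.26 ± 0.24 (SE, adjusted p = 0.00506). CLF, the histone methyltransferase of the Polycomb repressor, had -0.53, -0.64 and -0.65 on Day0 and 0.28, 0.03 and 0.06 on Day25 and rose by 0.73 ± 0.14 (SE, adjusted p = 0.0048). Its days were apart, but by less than 2-fold. HDA9 (0.88) and DDL (0.73) also rose by less than 2-fold. Further rises of 2-fold or more were those of CHC1 (1.10) and BSH (1.31), both parts of SWI/SNF complexes, and of ASHH2 (1.16), a histone methyltransferase whose adjusted p was 0.132, 0.0659 and 0.0841 without Day0 replicate 2, Day25 replicate 1 and Day25 replicate 2. INO80 (-0.47, adjusted p = 0.0525, or 0.0397 with the replicate number as a block) and HDA2 (-0.18, adjusted p = 0.318) did not pass. The other 10 were kept in too few samples, among them HYL1, a helper of DCL1, and DDM1, a remodeller needed for DNA methylation. Without the quality marks, HD2C (-2.25), DDM1 (-1.56), an H3/H4 histone acyltransferase (-1.32), FCA (-1.01) and VIM1 (-0.42) were lower on Day25. Higher on Day25 were SUVH1 (1.35), second spots of AGO1 (0.87) and CHC1 (0.69), an exostosin family protein (0.69) and HYL1 (0.30). The counts of tested spots leave out these spots of both directions.

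The only sequences at hand for these transcripts are the pairs of oligonucleotides that the study designed to amplify them, written as listed there (by convention 5' to 3'), without a statement of strand. They are shown because they mark which pine transcript stands behind 5 of the names, and no amplification values were used.
DCL1, first: tgaacaccaccaaaaggaattg
DCL1, second: tctcgtctttgcttgacttatc
AGO9, first: tgcagattcttgtccatgcttt
AGO9, second: ctggctcgcagctaaatgc
CLF, first: tgaaaaatactgtgggtgttcga
CLF, second: cagcaaagcacgggcatt
HDA9, first: tctatcgaccacacaaggcatatc
HDA9, second: caagtgctgtgtatcaggcgtta
BSH, first: ggattagcaatgctcaaaacac
BSH, second: ggcgaatgggaatcaagttc

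Transcription factors rose about 3 times as often as they fell. Of 51 spots 32 rose, 10 fell and 9 did not pass (median 0.99). Over all named spots 748 of 1709 rose and 602 fell (median 0.27). A basic helix-loop-helix factor matched to AT1G12540 had -2.61, -2.14 and -1.81 on Day0 and 0.09, 1.13 and 0.89 on Day25 and rose by 2.89 ± 0.30 (SE, adjusted p = 0.000349). The AP2 domain factor matched to AINTEGUMENTA (ANT), which promotes organ growth in Arabidopsis, had -1.64, -2.02 and -1.91 on Day0 and 0.90 and 0.81 on Day25 and rose by 2.71 ± 0.18 (SE, adjusted p = 0.000126). All 3 spots for TIFY domain protein 8 rose, the highest with -1.09, -2.24 and -1.66 on Day0 and 1.01, 0.90 and 0.87 on Day25, a rise of 2.59 ± 0.26 (SE, adjusted p = 0.000332). ILR3, a helix-loop-helix factor of iron and metal balance, had -1.34, -1.65 and -1.22 on Day0 and -0.09, 1.18 and 1.21 on Day25 and rose by 2.17 ± 0.33 (SE, adjusted p = 0.00185). In 3 of these 4 spots every Day25 sample was above the pool, and in ILR3 the first replicate was just below it. Squamosa promoter binding protein-like 8, a factor of flower and fruit development in Arabidopsis, had 1.02, 1.30 and 0.87 on Day0 and -1.43, -1.99 and -1.78 on Day25 and changed by -2.80 ± 0.19 (SE, adjusted p = 9.55e-05). WRKY28 changed by -1.60 ± 0.20 (SE, adjusted p = 0.000807).

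Of the 23 transcription factor spots that the study lists, 16 were tested, and 11 rose, 3 fell and 2 did not pass. MYB4 had -2.16, -1.86 and -1.97 on Day0 and -0.10, -0.08 and 0.58 on Day25 and rose by 2.13 ± 0.21 (SE, adjusted p = 0.000278), MYB3 rose by 1.66 and a further MYB-like factor by 1.76. Both MYB3 and MYB4 are repressors of phenylpropanoid genes in Arabidopsis. ANAC075 rose by 1.45 and ATAF1, another NAC factor, by 1.23, with an adjusted p of 0.0564 without Day25 replicate 2 and 0.0531 without Day25 replicate 3. The falls were WRKY28, the bZIP factor FTM3 (-1.45) and a helix-loop-helix factor matched to AT3G19500 (-1.30, adjusted p 0.057 without Day0 replicate 3). FAMA, which ends the division of stomatal precursors in Arabidopsis, had -1.49, -0.32 and -0.82 on Day0 and -0.91, -0.82 and -0.42 on Day25, an overlap of the days and a difference of 0.16 (adjusted p = 0.686). NF-YC2 overlapped as well (-0.74, adjusted p = 0.0762, or 0.00528 with the replicate number as a block).

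**Figure D4:**
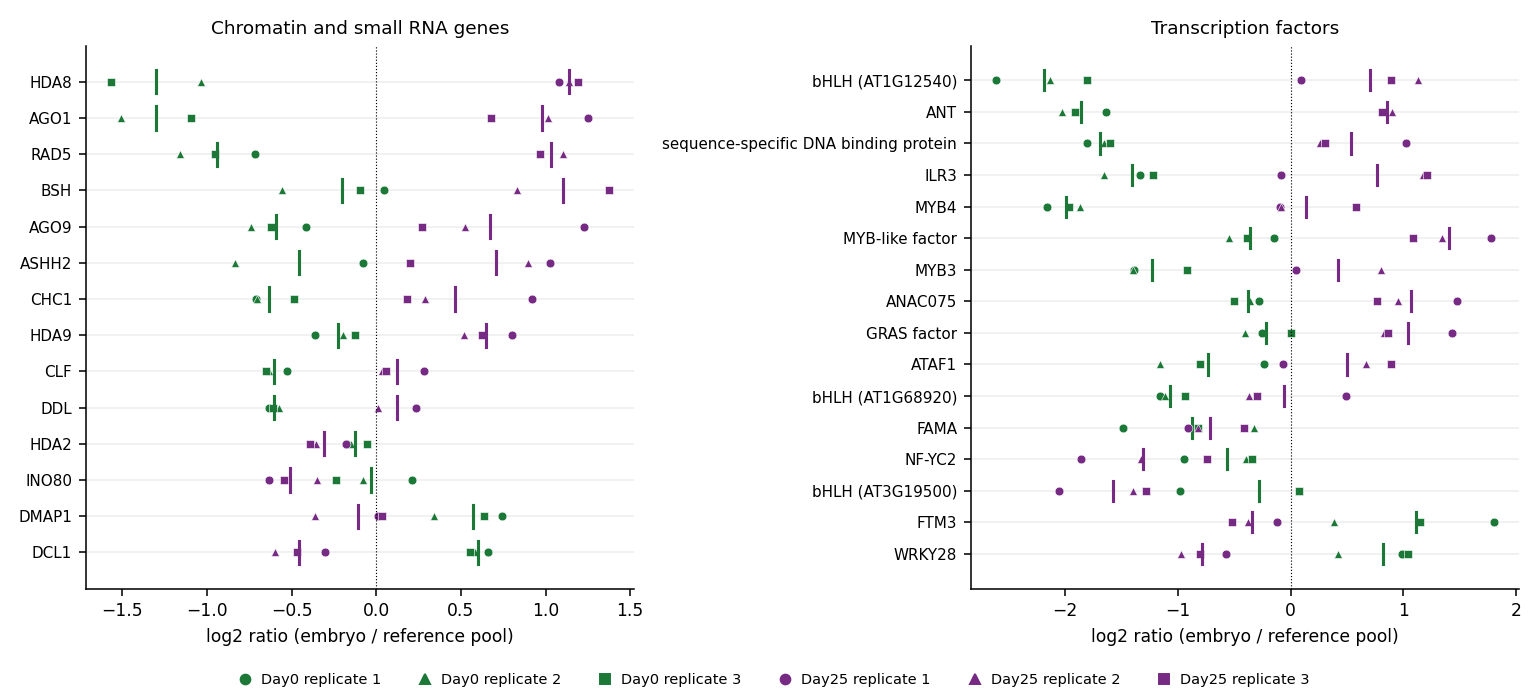
Level (log2, embryo relative to the reference pool) in each sample for the 14 chromatin and small RNA spots (left) and the 16 transcription factor spots (right) of the study's lists that were tested, ordered by their difference. Symbols are replicates, green for Day0 and purple for Day25, vertical bars are the means of the day, and FAMA and NF-YC2 are the spots whose days overlap.

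Protein kinases, ubiquitin genes and proteases completed the lists. Of 71 kinase spots 38 rose, 20 fell and 13 did not pass (median 0.60). CIPK23, a kinase that answers calcium signals and acts on ion transport, had -1.62, -1.86 and -1.61 on Day0 and 0.63 and 0.61 on Day25 and rose by 2.32 ± 0.16 (SE, adjusted p = 0.000152), while its relative CIPK20 had 0.93, 0.79 and 0.67 on Day0 and -1.22, -1.35 and -1.48 on Day25 and changed by -2.15 ± 0.14 (SE, adjusted p = 9.54e-05). Of 61 spots for ubiquitin and F-box proteins, which mark proteins for breakdown, 32 rose, 12 fell and 17 did not pass (median 0.71), with 7 falls without Day25 replicate 2. An F-box protein had -2.03, -1.95 and -1.97 on Day0 and 0.97, 0.90 and 0.98 on Day25 and rose by 2.93 ± 0.13 (SE, adjusted p = 4.26e-05), or by 1.00 on the second spot of its assembly. Of 48 protease spots 16 rose, 18 fell and 14 did not pass (median -0.20), and the rises were 9 without Day25 replicate 2. Cysteine proteases fell in 8 of 9 spots and the other did not pass. The deepest of them, matched to an Arabidopsis protease of dying cells (AT5G50260), had 1.31 and 1.06 on Day0 and -1.28, -1.61 and -1.32 on Day25 and changed by -2.58 ± 0.18 (SE, adjusted p = 0.000152). A subtilisin-like protease rose by 2.42 and an aspartic protease by 2.55.

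The 3 harvests between Day0 and Day25 were used to describe when these differences appeared. Over the 6271 spots tested that had a level in all 15 samples, each sample was placed between the mean of Day0 (0%) and the mean of Day25 (100%), its own level left out of those means. The Day5 samples stood at 19.5% to 34.8%, the Day11 samples at 48.5% to 53.1% and the Day15 samples at 61.7% to 76.4%. Those of Day0 stood at 5.3% to 9.0% and those of Day25 at 88.8% (replicate 1) to 101.1%, so that the days kept their order without overlap.

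The falls had covered more of their difference by Day5 than the rises. In the 999 spots that fell at least 2-fold and had middle levels, the median share of the difference reached by Day5 was 31.9%, by Day11 59.3% and by Day15 71.9%. In the 1254 rises it was 21.5%, 48.1% and 64.5%. The step that moved most was that to Day5 in 42.7% of the falls and that to Day25 in 45.6% of the rises. A steady course without a turn was found in 52.8% of the falls and 57.5% of the rises. These are descriptions, and the difference between rises and falls was not tested.

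The lists differed in their course. In the 31 falls of the cell wall list the median share reached by Day5 was 56.2%, and in the 13 falls of transporters it was 56.5%. XTH23 went from 2.62 on Day0 to -1.17 on Day5, which is 74.0% of its fall, and the glutathione S-transferase from 1.37 to -2.90 (73.9%). In contrast, the 9 falls of the replication list and the 10 falls of the translation list had moved by -4.0% and -4.1% at Day5 and by 45.7% and 48.7% at Day15. Late falls also included the germin-like protein, with a mean of -0.04 on Day0, 0.28 on Day5, -0.34 on Day11, -1.12 on Day15 and -3.61 on Day25. Among rises, the 22 kinase spots had reached 77.2% and the 22 transcription factor spots 67.6% at Day11, whereas the 18 heat shock spots stood at 24.4% and the 12 rises of the cell wall list at 8.8%. The 10 rises among the transcription factors that the study lists stood at 15.5% on Day11 and 31.3% on Day15, lower than the longer list of transcription factors. The study chose that list by 2-fold steps between consecutive harvests and found the most factors in the step from Day15 to Day25. The low shares thus follow in part from that choice. Shares of single spots at Day11 ran from -39.6% (ATAF1) to 166.8% (a helix-loop-helix factor). MYB4, which the study lists for rises up to Day11, had too few middle levels to be among them. The B12D-like protein had means of -0.87, -1.17 and -1.17 on the middle days and 2.08 on Day25, and the low molecular weight heat shock protein -3.01, -2.77 and -1.56 before 0.95. These transcripts made most of their rise after Day15.

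**Figure D5:**
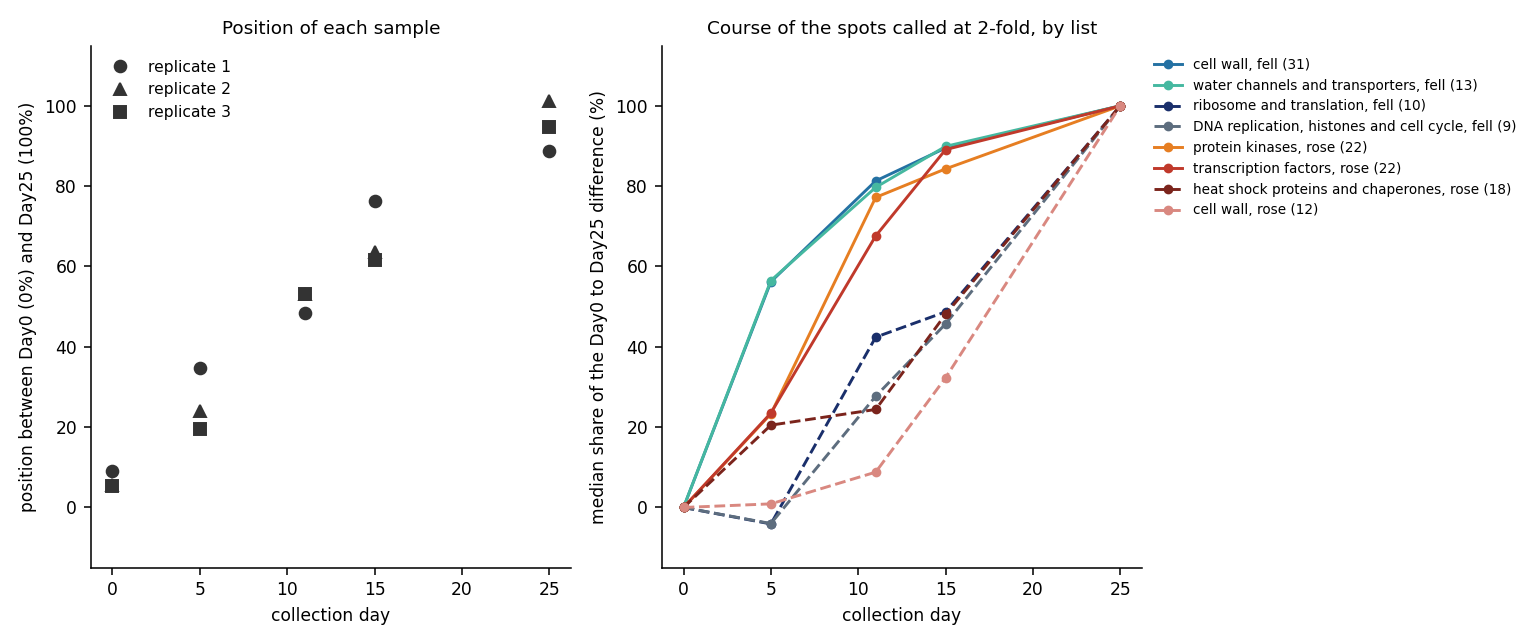
Left, the position of each of the 15 samples between the means of Day0 (0%) and Day25 (100%) over 6271 spots, against the collection day, with a symbol for each replicate. Right, the median share of the difference between Day0 and Day25 reached on each day by the spots of a list that rose or fell at least 2-fold (number of spots in parentheses), set to 0% on Day0 and 100% on Day25 by construction. Falls of the cell wall list reach 56.2% by Day5, and rises of the cell wall list stand at 8.8% on Day11.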

How the data were processed

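Zygotic embryos of Pinus pinaster were dissected and pooled, their RNA was amplified in 2 rounds, and RNA of several extractions was joined where 1 gave too little. Cy3 embryo and Cy5 reference were hybridized on 12 arrays of both days without a dye swap. The authors scanned the arrays with ProScanArray, quantified spots with ImaGene, left out low-quality spots and blanks, applied no background correction, and used limma for print-tip loess within arrays and cyclic loess between arrays; the version is not given in the sources used here. The deposited log2 ratios are these normalized values, and the scale follows from ratios computed from the scanner intensities (r = 0.9927 to 0.9965 per array). The deposited intensities are spot and local background brightness as ImaGene gave them, per the file headers, with quality marks of 1 for a kept spot.

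The main values were the log2 ratios, averaged over the 2 arrays of a sample. Spots with values in at least 2 of 3 samples on both days were fitted with limma 3.58.1 (lmFit, eBayes; R 4.3.3), and p-values were adjusted by Benjamini-Hochberg over all 16449 spots; every adjusted p in the report is from this fit, the same fit without a sample or, where named, with the replicate number as a block. A spot rose or fell at an adjusted p under 0.05, and 2-fold counts also needed a fold of at least 2. The smallest two-sided p of an exact permutation test of 3 against 3 samples is 0.1, so that no such test was run on single spots. The steps were tested on simulated data. The number of arrays limits the precision.

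Names came from the study's tables, some of which were shortened in the copy used. Spots were named in the text by a rule: the 15 highest rises and 15 deepest falls among named spots changed at least 2-fold without overlap of the days (1 spot for each name), up to 3 of each direction in each gene list, and the spots of the study's lists of chromatin genes and transcription factors. Other spots and families were singled out after their values were seen. The members and lists were chosen with earlier results of these data known.

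Replicate numbers are shared between the days. The deviations of the samples from their day's mean correlated at 0.499, 0.176 and 0.114 between the days for numbers 1, 2 and 3 (other pairs of numbers -0.466 to 0.452), and a fit with the number as a block was run as an alternative. Other alternatives were values computed from the intensities (without and with normexp background correction, with 1 loess per array, and without quality marks), stricter filters, scaling, centring, all 15 samples in 1 fit, single arrays with their estimated correlation, a robust spread, a test against a fold of 1.5, and leaving out each sample. Slide and scan date are not given in the files used here.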

Additional observations from a re-analysis of the deposited data

How the results depend on the processing

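All 2640 spots that changed at least 2-fold kept their sign wherever an alternative tested them. This follows in part from their choice by large differences on the same levels. In the alternatives that changed only the test, its spread or the set of spots, the sign could not change. The number of changed spots (6026, with 1480 rises and 1160 falls of at least 2-fold) moved by more than 1.5 times in 3 alternatives. Without quality marks, 26496 spots were tested and 11097 changed (2566 and 2133 at 2-fold). With values required in all 3 samples of both days, 10201 spots were tested and 3973 changed (851 and 700). Tested against a fold of 1.5, 1568 changed (915 rises and 653 falls). Leaving out 1 sample gave 4039 to 6118 changed spots, 1411 to 1560 rises and 1079 to 1231 falls. With the replicate number as a block, 7318 spots changed, with 1518 rises and 1217 falls, and among the spots named in the report only INO80 and NF-YC2 changed their call (adjusted p 0.0397 and 0.00528). Of 158 changed spots among the 162 named, 21 lost the call against a fold of 1.5, 5 of them also without a sample, and none in any other alternative. FAMA, not changed in the main fit, turned from 0.16 to -0.145 without Day0 replicate 1, with a highest value of 0.439 without Day0 replicate 2. No alternative with slide or scan date was run. The deepest falls had a lower embryo signal over background on Day25 than on Day0, as given above. Whether this limits their size was not tested.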

Other observations

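Several spots can stand for 1 transcript assembly (unigene) of the pine sequence collection. Of 61 unigenes with at least 2 changed spots, 126 spots in all, 60 had every changed spot moving the same way. The exception was gamma-tocopherol methyltransferase, an enzyme of vitamin E synthesis, with differences of -1.08 and 1.09 on its 2 spots. The spots of a unigene went the same way but not always as far. XTH23 had differences of -5.12 and -2.50 on its pair of spots, while the 3 spots of XTH28 had -3.63, -3.14 and -3.06. The pairs of pectinesterase 68 (-4.00 and -1.74), the basic endochitinase (-3.54 and -1.08), the F-box protein (2.93 and 1.00) and the histone deacetylase HDA8 (2.44 and 1.06) also lay apart in size.

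Some spots passed the quality marks in all 3 samples of a day and in none of the other, 347 on Day0 and 449 on Day25. Being kept on 1 day only did not go with a higher level there. Without the marks, 156 of the 347 were higher on Day0 and 181 of the 449 on Day25. Among the named ones, an anti-microbial protein kept on 1 day had a difference without marks of -3.77, a GINS complex subunit like PSF3, which takes part in DNA replication, 3.06, methyl esterase 17 2.37, molybdenum cofactor sulfurase 1.94 and an inositol transporter 1.79.

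Of the regulators in the study's lists that were kept in too few samples, values without the marks were as follows. The deepest differences were those of the auxin response factor ARF16 (-3.37), a PLATZ zinc-binding factor (-2.71) and the plant-specific histone deacetylase HD2C (-2.25). The chromatin remodeller DDM1 stood at -1.56 and the flowering regulator FCA at -1.01. The highest was YAB2 (2.65), a factor of the underside of leaves in Arabidopsis, followed by NF-YA9 (2.00), SUVH1 (1.35) and AS2 (1.20). No test result is given for these values, although the alternative fit without quality marks covered these spots. Spots without a quality mark are less certain.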
